A study of Mus musculus with 9 samples.

Results

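The lysyl oxidase family consists of 5 genes in the mouse, Lox, Loxl1, Loxl2, Loxl3 and Loxl4. Its members were taken by symbol from the raw table of read counts per gene, and all 5 were found among its 43472 genes. Each had enough reads to be among the 14257 genes tested. The study sequenced RNA from 3 skeletal tissues of C57BL/6J mice. The tissues were immature cartilage with immature chondrocytes (ImC), mature cartilage with mature chondrocytes (MatC) and bone with osteoblasts (Bone), and each had 3 libraries. No genotype other than the strain, no treatment and no age, sex or skeletal site is given in the labels used here. Whether the libraries of a tissue came from different animals is not stated, and the spread that the p-values rest on may be technical. RNA was isolated with a PicoPure kit, treated with DNase and amplified in 1 round before library preparation.

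Lysyl oxidases are secreted, copper-dependent amine oxidases. They oxidise the side chains of lysine and hydroxylysine in collagens and elastin, and the aldehydes formed condense into the covalent cross-links that give bone and cartilage their strength. Lox and Loxl1 are made as proenzymes with a propeptide that is cleaved outside the cell. Loxl2, Loxl3 and Loxl4 carry scavenger receptor domains in place of that propeptide. All 5 share a C-terminal catalytic domain with a copper-binding site and a quinone cofactor formed from the enzyme's own lysine and tyrosine.

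The catalytic domain is what makes these genes a family. The short coding run of its copper-binding site shows how close the 4 members given here, Loxl1 to Loxl4, are in sequence at that site. The Lox run was not used here. The runs were read from the GRCm38 (mm10) genome with the GENCODE M21 annotation and are written 5′ to 3′ on the coding strand, with the codons of the 4 histidines in capitals. Each run has 33 bases and crosses an exon junction, so that its genome interval includes an intron.
Loxl1: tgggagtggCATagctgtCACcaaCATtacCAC
Loxl2: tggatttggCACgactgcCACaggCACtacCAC
Loxl3: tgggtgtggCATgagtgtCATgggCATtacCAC
Loxl4: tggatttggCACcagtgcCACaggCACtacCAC
The Loxl2 and Loxl4 runs matched at 31 of 33 bases. Loxl3 matched Loxl1, Loxl2 and Loxl4 at 25 bases each, and Loxl1 matched Loxl2 at 22 and Loxl4 at 21. The Loxl2 and Loxl4 runs are the closest pair of these 4 runs, and whole coding sequences were not compared. The levels of Loxl2 and Loxl4 across the 3 tissues differed, as described below. The Loxl1 run lies in exons 3 and 4 of 7 at chr9:58293720-58294381 (minus strand). The Loxl2 run lies in exons 10 and 11 of 14 at chr14:69682316-69689037 (plus strand). The Loxl3 run lies in exons 10 and 11 of 14 at chr6:83049995-83050125 (plus strand). The Loxl4 run lies in exons 11 and 12 of 15 at chr19:42598807-42599899 (minus strand).

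Loxl4 had the smallest adjusted p of the family in both comparisons with immature cartilage. Its promoter window, the only one of the family available here, is shown. It is the part of the RefSeq promoter window that lies before the gene's GENCODE start, 243 bases at chr19:42612814-42613056 on GRCm38.p6. It is written 5′ to 3′ on the gene's own minus strand. Capitals mark the GC box GGGCGG.
Loxl4: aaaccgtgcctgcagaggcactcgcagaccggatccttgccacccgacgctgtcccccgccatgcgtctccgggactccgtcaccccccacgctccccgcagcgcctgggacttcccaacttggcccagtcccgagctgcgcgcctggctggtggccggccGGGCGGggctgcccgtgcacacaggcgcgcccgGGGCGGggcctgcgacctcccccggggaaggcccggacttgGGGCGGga
The window was 75.7% G and C. The median was 52.3% over 32851 mouse windows, the first 243 bases of each promoter entry. Those windows were not cut at their own gene starts. It held 3 matches to the GC box over both strands, and 31.8% of all windows held at least 1. No match was found to 5 other motifs, each searched on both strands. These were the RUNX motif TGTGGT (in 13.8% of all windows), the hypoxia response core ACGTG (16.1%), the AP-1 motif TGANTCA (6.64%), the MEF2 motif (3.12%) and the SOX motif ATTGTT (9.28%). A match is a description of letters in this window. Promoter windows of the other 4 genes were not used here.

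The libraries held between 7913684 (Bone replicate 2) and 23159547 (MatC replicate 2) counted reads. The share of reads from mitochondrially encoded genes was 32.02 to 55.0% in ImC, 33.7 to 82.3% in MatC and 7.24 to 8.91% in Bone. MatC replicate 3 stood apart. It had 82.3% mitochondrial reads, and only 14940 genes with a read against at least 17535 elsewhere. Its library size after TMM scaling, described below, was 3535238 reads. CPM are counts per 1000000 reads of that scaled size. Thus 3 reads correspond to 0.849 CPM in MatC replicate 3 and to 0.149 to 0.257 CPM in the other libraries. The labels matched their markers. Col2a1, the main collagen of cartilage, was at 4769 to 9782 CPM in all 6 cartilage libraries and at 297.2 to 681.7 CPM in Bone. Col10a1, the collagen of hypertrophic cartilage, was at 816.9, 933.1 and 4760 CPM in MatC replicates 1 to 3 and did not exceed 2.48 CPM elsewhere. The summed level of 12 osteoblast markers was 80403 to 95825 CPM in Bone and 524.3 to 583.1 CPM in ImC. In MatC it was 8436, 28528 and 1892 CPM, so MatC replicate 3 was the lowest of its group for bone markers and the highest for Col10a1.

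Lox, the founding member, was lowest in immature cartilage and highest in bone. Its gene spans chr18:52516067-52529867 on the minus strand of GRCm38. Levels are given in CPM, scaled between libraries by TMM (trimmed mean of M values, edgeR's correction for composition). ImC replicates 1 to 3 had 1.5, 4.32 and 10.7 CPM, from 18, 87 and 150 reads. MatC had 461.9, 444.7 and 30.8 CPM, from 6094, 6309 and 109 reads. Bone had 1263, 1364 and 1199 CPM, from 15937 to 23330 reads. The 3 tissues did not overlap, but MatC replicate 3 lay much closer to immature cartilage than to the other MatC libraries.
The means were 5.50 ± 4.70 CPM in ImC, 312.5 ± 244.1 CPM in MatC and 1276 ± 83.4 CPM in Bone (SD, n = 3 each). A gene counted as changed, or called, when its p from edgeR's quasi-likelihood test, adjusted over all 14257 tested genes, was below 0.05. The rise of Lox from ImC to MatC was 5.83 ± 1.03 as a log2 fold change (± SE; adjusted p = 0.0119, 95% interval 3.55 to 8.10). Between ImC and Bone the log2 fold change was 7.85 ± 1.12 (adjusted p = 0.00115, 95% interval 5.36 to 10.34). Between MatC and Bone the value was 2.03 ± 0.86, which did not pass the test (adjusted p = 0.193, 95% interval 0.12 to 3.94). The lowest Bone library was 2.6-fold above the highest MatC library.
The ImC to MatC change remained called in all 18 other analysis settings (other scalings, filter, tools and samples, or 1 library left out), with adjusted p from 1.73e-10 to 0.0483. It was 6.39 without MatC replicate 3 and 6.72 without ImC replicate 3. The change from ImC to Bone was 8.75 without ImC replicate 3, and it too stayed called in all 18 settings. In bulk RNA, a smaller number of cells that express a gene and less of its RNA per cell cannot be told apart.

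**Figure D1:**
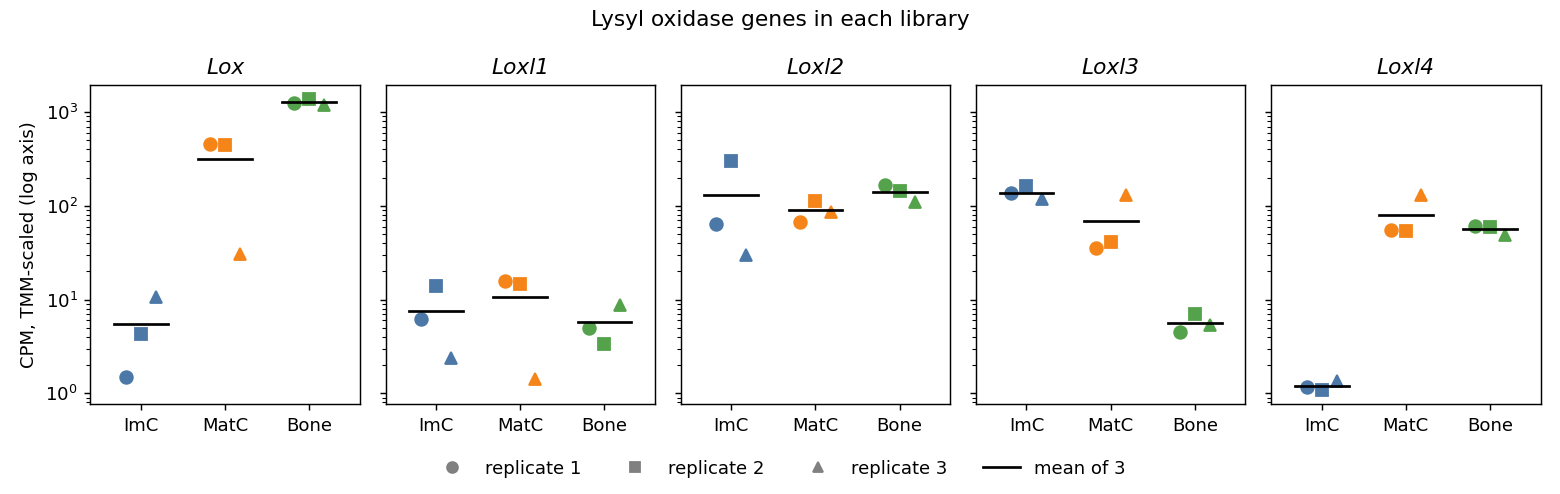
Level of each lysyl oxidase gene in every library, in TMM-scaled CPM on a log axis, by tissue (ImC, MatC, Bone; 3 libraries each); points are libraries and bars are group means. Lox runs from 1.5 CPM in ImC replicate 1 to 1364 CPM in Bone replicate 2, Loxl3 runs the other way, and Loxl1 and Loxl2 overlap between tissues.

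Bone markers also differed within MatC. The osteoblast list and Lox were both lowest in MatC replicate 3, and Col1a1, the main collagen of bone, was at 1487, 7726 and 163.8 CPM in MatC replicates 1 to 3. Counted against Col1a1 in the same library, Lox gave 310.5, 57.6 and 188.3 reads per 1000 Col1a1 reads in MatC. The same measure was 63.9, 58.8 and 58.2 in Bone and 6.75, 11.8 and 106.8 in ImC. MatC replicate 2 thus lay close to Bone on this ratio, and MatC replicates 1 and 3 lay above Bone. The part of bone-type RNA in the Lox result was not tested.

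Loxl4 was low in immature cartilage and high in both mature cartilage and bone. It is a scavenger receptor domain member at chr19:42593982-42612813 (minus strand). ImC had 1.17, 1.09 and 1.35 CPM, from 14, 22 and 19 reads. MatC had 55.1, 53.9 and 130.4 CPM, from 727, 764 and 461 reads. Bone had 61.1, 58.7 and 49.1 CPM, from 686 to 1128 reads. MatC replicate 3 was the highest library, and MatC and Bone overlapped.
Its means were 1.20 ± 0.135 CPM in ImC, 79.8 ± 43.8 CPM in MatC and 56.3 ± 6.35 CPM in Bone (SD, n = 3 each). The rise of Loxl4 from ImC to MatC was 6.04 ± 0.45 as a log2 fold change (± SE; adjusted p = 0.000316, 95% interval 5.05 to 7.03). The lowest MatC library was 39.8-fold above the highest ImC library. It also rose from ImC to Bone (log2 fold change 5.54 ± 0.44, adjusted p = 7.46e-05, 95% interval 4.57 to 6.51), and the groups were 36.3-fold apart at their closest. Both calls held in all 18 other settings, with adjusted p up to 0.00552.
Between MatC and Bone the log2 fold change was −0.50 ± 0.35 (adjusted p = 0.443, 95% interval −1.27 to 0.28). Its sign depended on MatC replicate 3, since it was 0.07 without that library, and it was 0.79 with scaling by library size alone.

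In TMM-scaled CPM the Loxl4 level in MatC replicate 3, unlike the Lox level there, was not lower than in the other MatC libraries. With the bone markers of that library at 1892 CPM, Loxl4 stood at 130.4 CPM, and Ihh, the hedgehog ligand of prehypertrophic cartilage, stood at 254.3 CPM against 145.4 and 69.2 CPM in MatC replicates 1 and 2. Per 1000 reads of Col2a1, the MatC libraries had 6.56, 11.3 and 15.5 reads of Loxl4, and the ImC libraries had 0.139, 0.127 and 0.138. Without MatC replicate 3 the ImC to MatC log2 fold change of Loxl4 was 5.52. The CPM of MatC replicate 3 depends on its TMM factor, 0.329, against 1.29 and 0.613 in MatC replicates 1 and 2. The Loxl4 reads were 727 of 10270972, 764 of 23159547 and 461 of 10763303 counted reads in MatC replicates 1 to 3. As an unscaled share, MatC replicate 3 lay below MatC replicate 1 and above MatC replicate 2. The part of bone-type RNA in the Loxl4 result was not tested.

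Loxl3 ran in the opposite direction and was lowest in bone. Loxl3, at chr6:83034173-83052562 (plus strand), is another scavenger receptor domain member. ImC had 135.3, 162.7 and 117.7 CPM, from 1624, 3277 and 1652 reads. MatC had 35.7, 41.1 and 131.8 CPM, from 466 to 583 reads, and Bone had 4.49, 7.02 and 5.41 CPM, from 82 to 96 reads. In TMM-scaled CPM MatC replicate 3 lay within the range of the ImC libraries, while the Bone libraries lay below all others. The place of MatC replicate 3 depends on its TMM factor, 0.329. Unscaled, it had 466 Loxl3 reads of 10763303 counted reads. The ImC libraries had 1624 of 10887562, 3277 of 15537174 and 1652 of 17606673. As an unscaled share, MatC replicate 3 lay below every ImC library and between MatC replicates 1 and 2.
The means were 138.5 ± 22.7 CPM in ImC, 69.5 ± 54 CPM in MatC and 5.64 ± 1.28 CPM in Bone (SD, n = 3 each). Loxl3 fell by 3.62 ± 0.51 on the log2 scale from MatC to Bone (± SE; adjusted p = 0.00388, 95% interval −4.76 to −2.48), and the lowest MatC library was 5.08-fold above the highest Bone library. Relative to ImC it fell by 4.62 ± 0.54 in Bone (adjusted p = 0.000413, 95% interval −5.81 to −3.43), with a gap of 16.8-fold. The ImC to Bone call held in all 18 other settings. The MatC to Bone call held in 17 of 18 and was lost with scaling by library size alone (log2 fold change −2.18, adjusted p = 0.0552). Without MatC replicate 3 that value was −2.74 (adjusted p = 0.00176).
Between ImC and MatC the log2 fold change was −1.0 ± 0.46, which did not pass the test (adjusted p = 0.213, 95% interval −2.03 to 0.03). Without MatC replicate 3 it was −1.83 and passed (adjusted p = 0.0088). Loxl3 overlaps the protein-coding gene Htra2 on the other strand over 535 bases, 11.6% of its exon length, and the library kit does not mark strand. Htra2 itself was counted at 1 to 57 reads per library, below Loxl3 in every one.

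Loxl2 varied most within immature cartilage. It lies at chr14:69609068-69695834 (plus strand), where the antisense gene Gm27177 overlaps 5.57% of its exon length and had 0 reads in every library. ImC had 64.6, 300.8 and 29.7 CPM, from 775, 6060 and 417 reads. MatC had 67.6, 113.8 and 86.3 CPM, from 892, 1615 and 305 reads. Bone had 167.7, 142.7 and 110.5 CPM, from 1667 to 3098 reads. ImC replicate 2 was the highest of the 9 libraries and ImC replicate 3 the lowest, so that ImC overlapped with both other tissues, and MatC overlapped with Bone through MatC replicate 2.
The means were 131.7 ± 147.5 CPM in ImC, 89.2 ± 23.3 CPM in MatC and 140.3 ± 28.7 CPM in Bone (SD, n = 3 each). No comparison of Loxl2 passed the test. The log2 fold change was −0.56 ± 0.67 from ImC to MatC (adjusted p = 0.651, 95% interval −2.05 to 0.93) and 0.65 ± 0.67 from MatC to Bone (adjusted p = 0.615, 95% interval −0.84 to 2.14). For ImC to Bone it was 0.09 ± 0.67 (adjusted p = 0.93, 95% interval −1.39 to 1.57). Without ImC replicate 2 the ImC to Bone value was 1.58 and passed (adjusted p = 0.0209), and the ImC to MatC value was 0.92.

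Genes of the hypoxia response were also high in ImC replicate 2. LOXL2 is a known target of hypoxia-inducible factors, the transcription factors that respond to low oxygen. Among the 12 genes of the hypoxia list, 9 (75.0%) had their highest ImC level in replicate 2, where 35.1% of all tested genes did. The exceptions were Epas1, Arnt and P4ha1. Car9, a carbonic anhydrase induced by low oxygen, was at 13.2, 61.5 and 4.13 CPM in ImC replicates 1 to 3. Egln3, the oxygen-sensing prolyl hydroxylase, was at 7.58, 25.6 and 4.84 CPM. Both had the same order over these libraries as Loxl2, and the part of this in the Loxl2 values was not tested.

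Loxl1, the member best known for elastic fibres, had the fewest reads of the family over the 9 libraries and did not separate the tissues. It lies at chr9:58287738-58313186 (minus strand). ImC had 6.17, 14.0 and 2.35 CPM, from 74, 283 and 33 reads. MatC had 15.8, 14.6 and 1.41 CPM, from 209, 207 and 5 reads. Bone had 4.93, 3.34 and 8.84 CPM, from 91, 39 and 157 reads. The libraries with the fewest reads were MatC replicate 3 and ImC replicate 3.
The means were 7.52 ± 5.97 CPM in ImC, 10.6 ± 7.99 CPM in MatC and 5.70 ± 2.83 CPM in Bone (SD, n = 3 each). The log2 fold change was 0.52 ± 0.80 from ImC to MatC (SE; adjusted p = 0.728, 95% interval −1.25 to 2.29) and −0.92 ± 0.80 from MatC to Bone (adjusted p = 0.54, 95% interval −2.71 to 0.86). From ImC to Bone it was −0.40 ± 0.80 (adjusted p = 0.731, 95% interval −2.17 to 1.37). The first of these values moved with single libraries. It was 1.36 without ImC replicate 2, 0.11 without ImC replicate 3, 0.15 without MatC replicate 1, 0.25 without MatC replicate 2 and 1.02 without MatC replicate 3, with no call in any of the 18 alternatives.

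**Figure D2:**
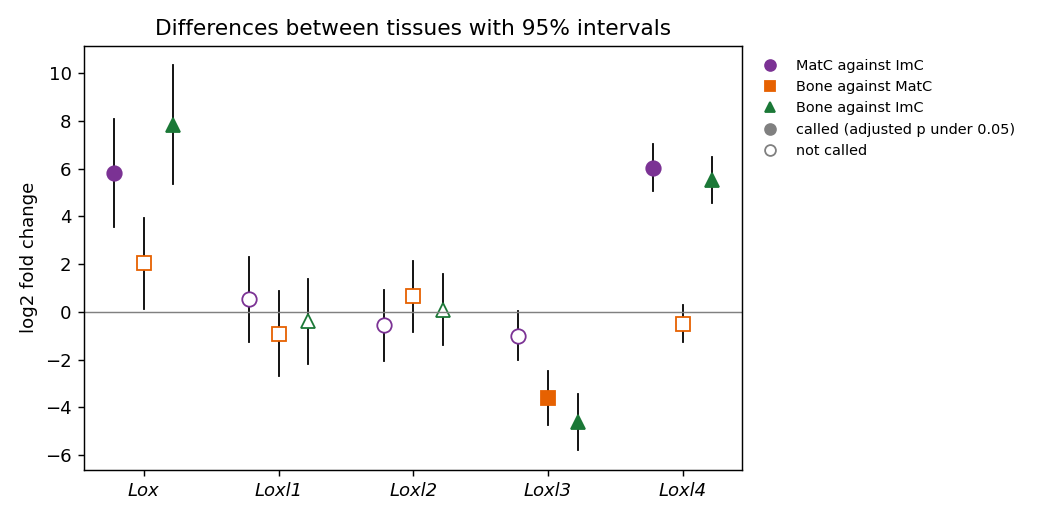
Log2 fold change of each gene between tissues with its 95% interval, for MatC over ImC, Bone over MatC and Bone over ImC. The intervals of Lox and Loxl4 lie above 0 in both comparisons with ImC, those of Loxl3 lie below 0 in both comparisons with Bone, and those of Loxl1 and Loxl2 include 0.

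By comparison, 2 of the 5 genes rose from ImC to MatC (Lox and Loxl4) and 0 fell. Among all tested genes 7.71% changed, 5.41% upwards and 2.29% downwards. With 0 calls downwards, none of the 5 reached an unadjusted p under 0.05 in that direction, and DESeq2 and limma-voom also called 0. From MatC to Bone, 1 of the 5 fell (Loxl3) and 0 rose, against 6.05% of all genes changed, 4.69% downwards and 1.36% upwards. In the upward direction 1 gene (Lox) had an unadjusted p under 0.05, and DESeq2 and limma-voom called 0. From ImC to Bone, 2 rose (Lox and Loxl4) and 1 fell (Loxl3), against 31.1% of all genes changed, 14.3% upwards and 16.8% downwards. Without MatC replicate 3 the calls numbered 3 from ImC to MatC, with Loxl3 added, 1 from MatC to Bone and 3 from ImC to Bone. The shares of all genes above are from the fit with all 9 libraries and cannot be set beside these counts. Over the 18 alternatives, all genes called numbered 205 to 2229 from ImC to MatC. They numbered 167 to 1964 from MatC to Bone and 2073 to 5627 from ImC to Bone. These 3 comparisons share their libraries in pairs and are not independent of each other.
The median log2 fold change of the 5 genes was 0.52 for ImC to MatC, −0.50 for MatC to Bone and 0.09 for ImC to Bone, where all tested genes had medians of 0.03, −0.03 and −0.02. Groups did not overlap for 2 of the 5 genes between ImC and MatC, for 2 between MatC and Bone, and for 3 between ImC and Bone. The corresponding shares of all tested genes were 23.9% (11.4% higher and 12.5% lower), 35.6% (17.9% and 17.7%) and 59.0% (30.1% and 28.8%).

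A further contrast set MatC against the midpoint of ImC and Bone on the log2 scale, which shows whether a gene in mature cartilage departs from a straight line between the other tissues. Loxl4 lay above that midpoint by 3.27 ± 0.30 (SE; adjusted p = 0.000662), and this held in all 17 other settings with adjusted p up to 0.0312. Its value was 2.72 without MatC replicate 3 and 2.24 with scaling by library size alone. It was the only one of the 5 to pass, against 3.06% of all tested genes, 2.98% above and 0.0772% below the midpoint. Loxl3 lay at 1.31 ± 0.39 (adjusted p = 0.119), and at 0.46 without MatC replicate 3. Lox lay at 1.90 ± 0.69 (adjusted p = 0.213) and passed without MatC replicate 3, where the value was 2.43 (adjusted p = 0.0428). Loxl1 (0.72 ± 0.68, adjusted p = 0.7) and Loxl2 (−0.61 ± 0.59, adjusted p = 0.715) did not pass.

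To compare the genes with each other, CPM was divided by the length of each gene's merged exons. This measure, CPM per kb, assumes even coverage along the transcript, which gene counts cannot show, and the exon lengths used were 4.778 kb for Lox, 3.297 kb for Loxl1, 5.405 kb for Loxl2, 4.603 kb for Loxl3 and 4.213 kb for Loxl4. The summed family level per kb was 43.8, 96.4 and 34.3 in ImC, 134.8, 140.3 and 82.4 in MatC and 312.3, 328.5 and 286.9 in Bone. Bone lay above every cartilage library, and ImC replicate 2, with its high Loxl2, lay above MatC replicate 3.

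In immature cartilage Loxl3 and Loxl2 led the family. Loxl3 stood at 30.1 ± 4.93 CPM per kb and Loxl2 at 24.4 ± 27.3 (SD, n = 3), and the order of these neighbours changed between libraries. Loxl3 took 67.1%, 36.7% and 74.5% of the family level per kb in ImC replicates 1 to 3, and Loxl2 took 27.3%, 57.7% and 16.0%. Loxl1 (2.28 ± 1.81), Lox (1.15 ± 0.985) and Loxl4 (0.286 ± 0.0319) followed at low levels per kb, and Lox did not differ beyond its spread from either of these neighbours.

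In mature cartilage Lox had the highest mean, 65.4 ± 51.1 CPM per kb (SD, n = 3), which did not exceed the next gene beyond its spread. It took 71.7% and 66.4% of the family in MatC replicates 1 and 2, but 7.83% in replicate 3. Loxl4 followed with 18.9 ± 10.4, Loxl2 with 16.5 ± 4.30 and Loxl3 with 15.1 ± 11.7 CPM per kb, and these neighbours did not differ beyond their spread. In MatC replicate 3 the largest shares were those of Loxl4 (37.5%) and Loxl3 (34.7%), which makes the order in mature cartilage depend on that library. Loxl1 was last at 3.22 ± 2.42 CPM per kb.

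In bone Lox alone made up most of the family. It stood at 267.0 ± 17.5 CPM per kb, and its share was 84.6%, 86.9% and 87.5% in the 3 libraries. Loxl2 followed at 26.0 ± 5.30 and Loxl4 at 13.4 ± 1.51 CPM per kb, each beyond the spread of its neighbours. Loxl1 (1.73 ± 0.859) and Loxl3 (1.23 ± 0.278) came last and did not differ beyond their spread.
The family share of Loxl3 per kb therefore went from 59.4 ± 20.0% in ImC through 15.6 ± 16.5% in MatC to 0.395 ± 0.0764% in Bone. That of Lox went from 2.72 ± 3.28% through 48.6 ± 35.4% to 86.3 ± 1.53% (SD, n = 3 each). These shares were not tested, and each depends on the other members.

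**Figure D3:**
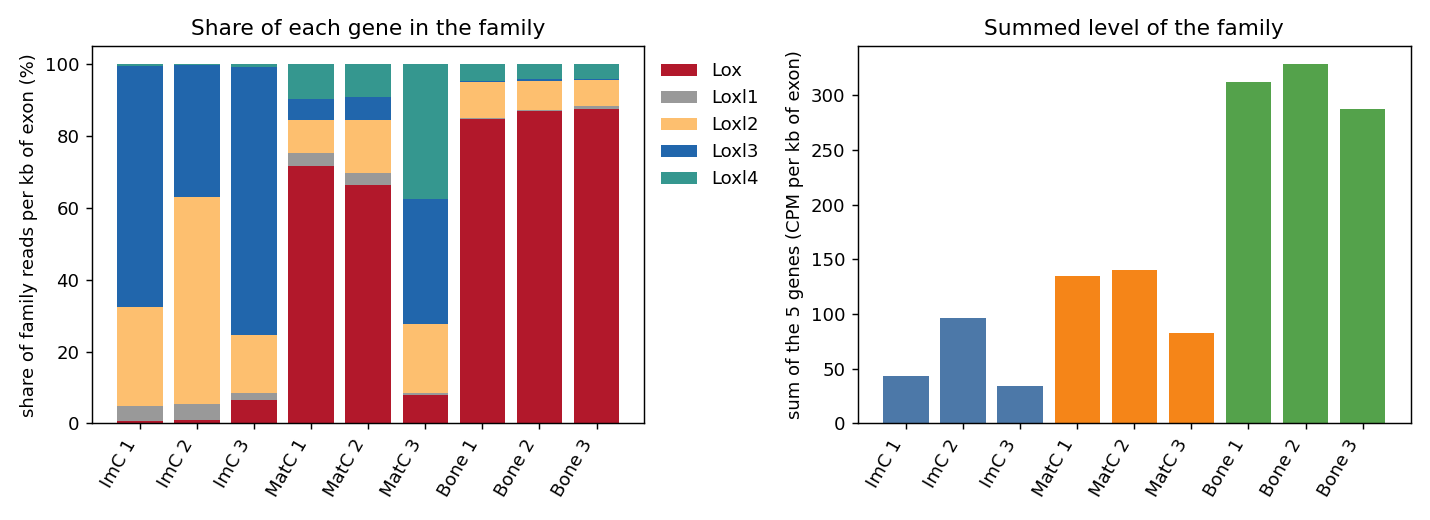
Left, share of each gene in the summed lysyl oxidase level per kb of exon (%) in each of the 9 libraries; right, that summed level in CPM per kb. Loxl3 and Loxl2 fill the ImC bars, Lox fills 84.6 to 87.5% of the Bone bars, and MatC replicate 3 differs from MatC replicates 1 and 2 by its small Lox share of 7.83%.

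Other cell types that such tissue samples can hold were followed with marker lists, because several differed between tissues in the same direction as Lox or Loxl4. The 8 osteoclast markers summed to 5.81 to 8.83 CPM in ImC, with Calcr and Dcstamp at 0 reads, to 97.8, 591.4 and 33.9 CPM in MatC and to 487.6 to 1077 CPM in Bone. The 10 endothelial markers summed to 5.51 to 25.9 CPM in ImC, 120.1, 300.3 and 23.5 CPM in MatC and 60.6 to 176.5 CPM in Bone. The 10 macrophage and leukocyte markers summed to 3.13 to 6.20 CPM in ImC, with C1qa, C1qb and Emr1 at 0 reads, to 16.8, 65.4 and 6.22 CPM in MatC and to 37.3 to 100.4 CPM in Bone. On all 3 lists MatC replicate 3 was the lowest and MatC replicate 2 the highest of the MatC libraries.
The 12 markers of perichondrium, tendon and fibroblasts summed to 140.7 to 777.4 CPM in ImC, with Tnmd and Dpt at 0 reads, to 1154 to 2477 CPM in MatC and to 1095 to 1878 CPM in Bone. The 6 erythroid markers summed to 8.25, 16.0 and 1063 CPM in ImC, 666.7 to 2654 CPM in MatC and 4856 to 6846 CPM in Bone, and ImC replicate 3 was also the ImC library with the most Lox. The 8 skeletal muscle markers summed to 9.28 to 9.97 CPM in ImC, with Ckm at 0 reads, 13.7 to 261.6 CPM in MatC and 5.82 to 81.5 CPM in Bone.
The immature chondrocyte list had its lowest sum in Bone, where Loxl3 was lowest too. Its 16 markers summed to 19662 to 27544 CPM in ImC, 13357 to 31275 CPM in MatC and 3129 to 3744 CPM in Bone. The 10 pericyte and smooth muscle markers summed to 665.6 to 1110 CPM in ImC, 409.1 to 623.4 CPM in MatC and 62.6 to 90.4 CPM in Bone, with Myh11 at 0 reads in Bone. Cspg4 alone gave most of the cartilage sums, at 652.2 to 1082 CPM in ImC. The other 9 markers summed to 13.4 to 27.7 CPM in ImC, 26.9 to 105.7 CPM in MatC and 25.2 to 52.3 CPM in Bone, so that without Cspg4 the list was not lowest in Bone. Of the 7 pericyte markers tested, 1 rose and 1 fell from ImC to Bone (median log2 fold change 2.12, against −0.02 over all tested genes). The 12 hypertrophic markers summed to 192.1 to 749.2 CPM in ImC, 5649 to 14383 CPM in MatC and 18444 to 23776 CPM in Bone, with Foxa2 at 0 reads in Bone, and 3 of these (Alpl, Ibsp and Spp1) are also osteoblast markers. Ibsp alone was at 16294 to 20079 CPM in Bone, and without it the sums were 185.4 to 732.9 CPM in ImC, 3735 to 14199 CPM in MatC and 2150 to 3697 CPM in Bone. From MatC to Bone 0 of the 12 hypertrophic markers rose and 6 fell (median −1.69, against −0.03 over all tested genes). With 0 upward calls, 2 markers were higher at an unadjusted p under 0.05, DESeq2 called 1 and limma-voom 0. The part of other cell types in the results on the 5 genes was not tested.

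**Figure D4:**
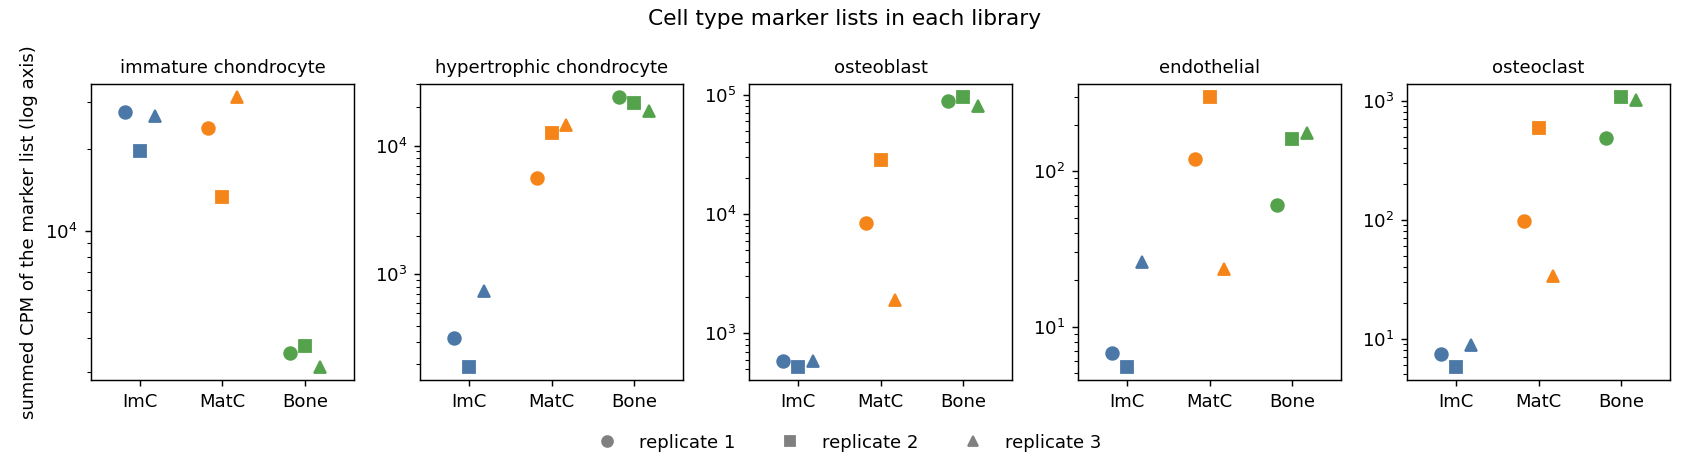
Summed CPM (log axis) of marker lists in each library, by tissue, where points are libraries. In MatC the osteoblast sum is lowest in replicate 3 at 1892 CPM, and ImC libraries lie at 524.3 to 583.1 CPM.

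Genes with a similar course over the 9 libraries were sought among genes that averaged at least 10 CPM, by Pearson's r of log2 CPM. The libraries fall into 3 tissues, so r mostly reflects differences between tissues and is a description. For Lox the closest were Dkk1 (r = 0.992), a Wnt inhibitor, Twist1 (0.992) and Zeb2 (0.991), both transcription factors, Ifitm5 (0.99), an osteoblast membrane protein, and Ibsp (0.984), bone sialoprotein. Ibsp was at 6.70 to 16.3 CPM in ImC, 1914, 5943 and 184.7 CPM in MatC and 16294 to 20079 CPM in Bone, with MatC replicate 3 low as for Lox. In all, 199 genes reached r of 0.9 with Lox.
For Loxl4 the closest were Sgms2 (0.99), a sphingomyelin synthase, Rb1 (0.989), the retinoblastoma protein, Raph1 (0.988), Slc13a5 (0.985), a citrate transporter, and Rps6kb1 (0.982), a ribosomal protein S6 kinase. Sgms2 was at 5.06 to 7.20 CPM in ImC, 898.6, 530.6 and 841.8 CPM in MatC and 447.7 to 527.1 CPM in Bone. For Loxl3 the closest were Scrg1 (0.992), Papss2 (0.991), which makes the sulphate donor for proteoglycans, Mbnl1 (0.987), Mfge8 (0.986) and Lrp8 (0.984). Scrg1 had 73.4 to 160.5 CPM in ImC, 14.4, 16.4 and 98.2 CPM in MatC and no reads in Bone, with MatC replicate 3 high as for Loxl3. At r of at least 0.9 there were 102 genes for Loxl4 and 274 for Loxl3.
For Loxl2 the closest were Sap30 (0.934), Htra1 (0.915), Map3k2 (0.891), Rcan1 (0.888) and Ddit4 (0.887), and 2 genes reached 0.9. All 5 were highest in ImC replicate 2, and Ddit4, a stress response gene, was at 33.9, 82.6 and 14.7 CPM in ImC. For Loxl1 the closest included Zfp760 (0.946), Tmem55b (0.939), Rqcd1 (0.908) and Cstf2 (0.901), and Zfp760 ranged only from 9.40 to 17.98 CPM over the 9 libraries. Between members, r was −0.894 for Lox and Loxl3, 0.825 for Lox and Loxl4 and −0.609 for Loxl3 and Loxl4.

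Genes that activate, anchor or feed the cross-linking reaction were taken from 8 lists, whose counts are to be read against the shares and medians of all tested genes given above. Those shares are from the fit with all 9 libraries and do not cover the counts given without MatC replicate 3. Of the 12 genes for propeptide processing and matrix partners, 11 were tested and Tll2 had no reads. Between ImC and MatC 3 rose and 1 fell (median log2 fold change 0.61), from MatC to Bone 0 rose and 2 fell (−0.74), and from ImC to Bone 4 rose and 2 fell (1.09). Bmp1, the protease that cleaves the Lox propeptide, was not among the calls, with 13.2 to 35.5 CPM in ImC, 20.2 to 46.7 CPM in MatC and 38.9 to 49.4 CPM in Bone. With 0 upward calls from MatC to Bone, 1 gene had an unadjusted p under 0.05, DESeq2 called 1 and limma-voom 0. Leaving out MatC replicate 3 gave 1 call between MatC and Bone.
Postn, periostin, a matrix protein that binds Bmp1 and promotes Lox activation, rose from ImC to MatC (log2 fold change 5.57 ± 1.14, adjusted p = 0.0195) and from ImC to Bone by 4.83 ± 1.10 (adjusted p = 0.0097). Its ImC levels were 0.667, 9.18 and 0.499 CPM, and without ImC replicate 2 the values were 8.16 and 7.43. The call from ImC to MatC was lost without ImC replicate 1. Adamts2, a procollagen N-proteinase that can also cut the Lox proenzyme, was at 1.04 to 1.71 CPM in ImC, 24.8, 25.5 and 0.849 CPM in MatC and 39.4 to 54.7 CPM in Bone. It rose from ImC to Bone by 5.02 ± 0.87 (adjusted p = 0.00291) in all 18 settings. Its rise from ImC to MatC, 3.63 ± 0.83 (adjusted p = 0.0289), held in 7 of 18 settings. It was lost without any 1 library other than ImC replicate 3 and MatC replicate 3, and MatC replicate 3 lay below the ImC libraries.
Fmod, fibromodulin, a collagen-binding proteoglycan that interacts with Lox, fell from ImC to MatC (log2 fold change −5.49 ± 1.10, adjusted p = 0.0181) and from ImC to Bone (−7.28 ± 1.20, adjusted p = 0.00223). It was at 232.1, 1092 and 57.5 CPM in ImC, and without ImC replicate 2 the values were −3.82 and −5.60. The ImC to MatC value was −6.09 without MatC replicate 2, and its call was lost without MatC replicate 1. The ImC to Bone value was −7.98 without Bone replicate 3. Thbs1, the matricellular protein thrombospondin 1, fell from MatC to Bone (−2.71 ± 0.53, adjusted p = 0.0176), a call held in 13 of 18 settings and lost without MatC replicate 3 or any 1 Bone library. It fell from ImC to Bone (−2.10 ± 0.52, adjusted p = 0.0134), a call lost without Bone replicate 1. With scaling by library size alone both Thbs1 calls were lost (adjusted p = 0.181 from MatC to Bone and 0.16 from ImC to Bone).

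Fbln5, fibulin 5, the elastic fibre protein that tethers Loxl1, was highest in mature cartilage. It had 0, 0.298 and 0 CPM in ImC, 42.3, 12.8 and 12.4 CPM in MatC and 0.704, 1.28 and 3.10 CPM in Bone. Its rise from ImC to MatC was 7.46 ± 1.10 (log2, ± SE; adjusted p = 0.00553), which held in all 18 settings. The value was 6.64 without MatC replicate 1, and 11.21 without ImC replicate 2, where ImC had no reads left and the fitted value is no bound. Its MatC to Bone value was −3.73 ± 0.86 (adjusted p = 0.0329), a call lost without MatC replicate 1 or any 1 Bone library or with scaling by library size alone, with values of −2.87 without MatC replicate 1 and −4.50 without Bone replicate 3. Fbln5 also rose from ImC to Bone by 3.73 ± 1.04 (adjusted p = 0.0221), a call lost without ImC replicate 1, ImC replicate 3 or Bone replicate 3. That value was 2.96 without Bone replicate 3 and 7.49 without ImC replicate 2. It lay above the midpoint of ImC and Bone by 5.59 ± 0.74 (adjusted p = 0.00399). Elastin itself (Eln) was at 0 to 2.08 CPM in ImC, 1.29, 23.8 and 0 CPM in MatC and 0.282 to 0.379 CPM in Bone, and was called by edgeR between no 2 tissues. DESeq2 called it lower in Bone than in MatC (−4.60, adjusted p = 0.0209), and so did edgeR without the low-count filter (−4.57, adjusted p = 0.0102), against an edgeR value of −4.64 with adjusted p = 0.13 in the fit given here.
In the elastic fibre list, which shares Fbln5 and Efemp2 with the previous one, 9 of 10 genes were tested. Of these, 1 rose and 1 fell from ImC to MatC (median 0.25), from MatC to Bone 0 rose and 2 fell (−0.57), and from ImC to Bone 2 rose and 1 fell (−0.43). With 0 upward calls from MatC to Bone, 1 gene had an unadjusted p under 0.05, DESeq2 called 1 and limma-voom 0. Fbn1, fibrillin 1, fell from MatC to Bone (log2 fold change −2.15 ± 0.46, adjusted p = 0.0246), and the value was −1.54 and not called without MatC replicate 1, with the call also lost without any 1 Bone library. Emilin1, an elastic fibre glycoprotein, fell from ImC to MatC (−1.73 ± 0.45, adjusted p = 0.0469), a call kept only without ImC replicate 1 or MatC replicate 2 among the fits that left out 1 library. Efemp2, fibulin 4, which binds Lox and the elastin precursor, rose from ImC to Bone by 1.22 ± 0.34 (adjusted p = 0.0224), and the call was lost without ImC replicate 1, ImC replicate 2, Bone replicate 2 or Bone replicate 3. Fbn2, fibrillin 2, fell from ImC to Bone (−2.91 ± 0.75, adjusted p = 0.0163). That value was −2.06 without ImC replicate 2 and −3.54 without Bone replicate 1, and the call was lost without Bone replicate 2 or 3.

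The collagens that lysyl oxidases cross-link divided by tissue. All 13 of the list were tested. Of these, 2 rose and 0 fell from ImC to MatC (median log2 fold change 0.19), from MatC to Bone 0 rose and 4 fell (−0.41), and from ImC to Bone 3 rose and 5 fell (0.00). In the first comparison 0 genes fell at an unadjusted p under 0.05 or in DESeq2 or limma-voom. From MatC to Bone 4 genes rose at an unadjusted p under 0.05, DESeq2 called 3 and limma-voom 0. The genes that rose from ImC to Bone were Col1a1 (6.53 ± 1.25, adjusted p = 0.00461), Col1a2 (7.31 ± 1.14, adjusted p = 0.00177) and Col5a2 (6.43 ± 0.97, adjusted p = 0.00156), fibrillar collagens of bone. The Col1a1 call held in 17 of 18 settings. DESeq2, the remaining setting, gave no adjusted p for it, so no call was possible there. Where an adjusted p was given, the largest was 0.0207. The Col5a2 value was 7.05 without ImC replicate 2.
Col1a2 was at 146.1 to 423.1 CPM in ImC, 4412, 10992 and 399.4 CPM in MatC and 41639 to 51462 CPM in Bone. Its rise from ImC to MatC (4.18 ± 0.98, adjusted p = 0.0324) held in 6 of 18 settings. It was lost without any 1 library other than MatC replicate 3, and was 3.06 without MatC replicate 2. Col5a2 rose from ImC to MatC by 4.25 ± 0.88 (adjusted p = 0.0202), by 4.86 without ImC replicate 2, and the call was lost without ImC replicate 1 or MatC replicate 2. The genes that fell from MatC to Bone were Col2a1 and the 3 collagen IX genes of cartilage, among them Col9a3 (−9.19 ± 0.53, adjusted p = 3.73e-05). All 4 of these calls held in all 18 settings, and Col9a2 (−7.61 ± 0.62, adjusted p = 0.0002) was at −6.89 without MatC replicate 3. Lox and Col1a2 were thus both lowest in MatC replicate 3 among the MatC libraries, as the osteoblast list was.

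Lysyl hydroxylases and their partners act inside the cell and prepare the lysines on which lysyl oxidases later act. All 10 were tested. From ImC to MatC 0 rose and 1 fell (median log2 fold change −0.24), from MatC to Bone 1 rose and 2 fell (−0.21), and from ImC to Bone 3 rose and 5 fell (−0.85). Leaving out MatC replicate 3 gave 1 call from MatC to Bone. From ImC to MatC, 0 genes rose at an unadjusted p under 0.05 or in DESeq2 or limma-voom. Colgalt2, a collagen galactosyltransferase, was at 139.2 to 204.8 CPM in ImC, 67.8 to 196.3 CPM in MatC and 2.17 to 4.90 CPM in Bone. It fell from MatC to Bone (−5.14 ± 0.50, adjusted p = 0.000398) and from ImC to Bone (−5.60 ± 0.51, adjusted p = 0.000138) in all 18 settings.
Plod2, the hydroxylase of collagen telopeptides, was at 385.2 to 673.6 CPM in ImC, 181.0 to 383.6 CPM in MatC and 89.4 to 108.1 CPM in Bone. It fell from ImC to Bone (−2.43 ± 0.37, adjusted p = 0.00156), a call lost with scaling by library size alone. Its MatC to Bone value, −1.62 ± 0.36 (adjusted p = 0.0281), was a fall that held in 10 of 18 settings and was −0.64 with that scaling. It was lost without ImC replicate 1, MatC replicate 1, MatC replicate 3 or any 1 Bone library. Plod3, another lysyl hydroxylase, fell from ImC to Bone (−1.31 ± 0.26, adjusted p = 0.00568), and was −0.79 and not called with that scaling. Leprel4, also known as P3h4, a partner of the hydroxylases, rose from MatC to Bone by 1.14 ± 0.24 (adjusted p = 0.0249), and by 2.18 with that scaling. The call was lost without MatC replicate 1, MatC replicate 3 or any 1 Bone library. Serpinh1, the collagen chaperone Hsp47, was at 1142 to 1744 CPM in ImC and 2551 to 3362 CPM in Bone and rose by 1.06 ± 0.32 (adjusted p = 0.0311), a call lost without ImC replicate 1, ImC replicate 2 or any 1 Bone library. Ppib, cyclophilin B, rose from ImC to Bone by 1.73 ± 0.59 (adjusted p = 0.0464) in 11 of 18 settings, and the call was lost without ImC replicate 1, ImC replicate 3, MatC replicate 2 or any 1 Bone library. Leprel2, also known as P3h3, fell from ImC to MatC (−1.36 ± 0.31, adjusted p = 0.0295), a call lost without MatC replicate 1, MatC replicate 3 or any 1 Bone library.

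**Figure D5:**
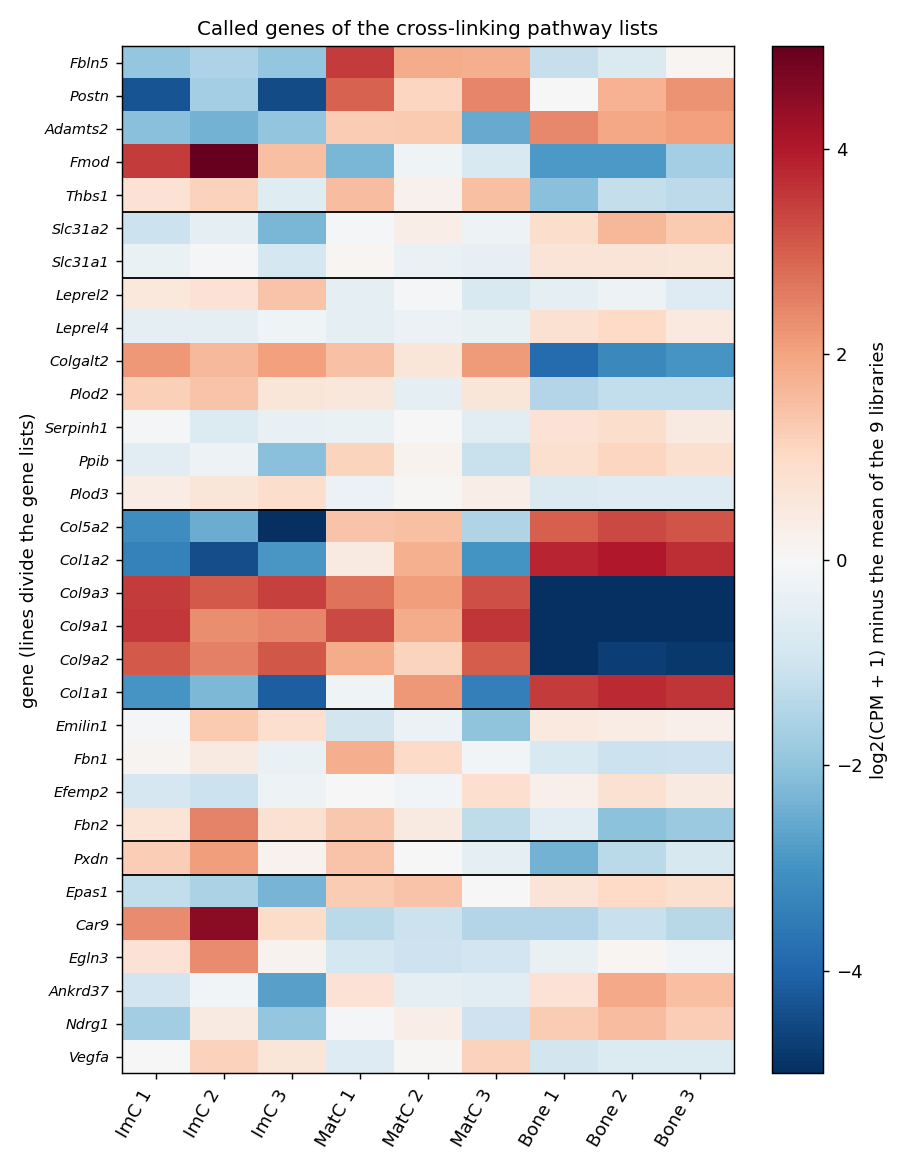
Called genes of the pathway lists (vertical axis, lines divide the lists) in the 9 libraries (horizontal axis); colour gives log2(CPM + 1) minus the gene's mean over the 9 libraries. Col1a1, Col1a2 and Col5a2 are high in Bone and low in ImC, the collagen IX genes are low in Bone, and Fbln5 is highest in MatC.

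Copper is the metal of the active site, and 4 of the 5 genes for its transport were tested. From ImC to MatC and from MatC to Bone 0 were called (medians −0.03 and 0.81). At an unadjusted p under 0.05 there were 0 and 1, DESeq2 called 0 and 1, and limma-voom called 0 in both. Between ImC and Bone 2 rose and 0 fell (median 0.78), where 1 gene was lower at an unadjusted p under 0.05, DESeq2 called 1 lower and limma-voom 0. The copper importer gene Slc31a1 was at 21.4 to 38.9 CPM in ImC, 30.3 to 43.3 CPM in MatC and 61.7 to 64.4 CPM in Bone (ImC to Bone 1.04 ± 0.28, adjusted p = 0.0192), and its call was lost without ImC replicate 1 or any 1 Bone library. Slc31a2 rose by 2.94 ± 0.76 (adjusted p = 0.0162), and by 3.85 without ImC replicate 2, with the call lost without Bone replicate 2. Atp7a, the pump that loads copper onto lysyl oxidases in the secretory pathway, was at 18.2 to 36.7 CPM in ImC, 12.2 to 23.8 CPM in MatC and 12.4 to 14.8 CPM in Bone. edgeR did not call it from ImC to Bone (−0.93, adjusted p = 0.0638), and DESeq2 called it lower in Bone (−0.90, adjusted p = 0.0401). edgeR also called Atp7a lower in Bone without MatC replicate 3 (−0.88, adjusted p = 0.0481) and without ImC replicate 3 (−1.13, adjusted p = 0.031). Without MatC replicate 3, 4 genes of the list were called from ImC to Bone.

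Of the other matrix cross-linking enzymes, transglutaminases and peroxidasin, 3 of 5 were tested. Called genes were 0 from ImC to MatC and from MatC to Bone (medians 1.14 and −2.01), and from ImC to Bone 0 rose and 1 fell (−0.86), with 0 rising at an unadjusted p under 0.05 or in DESeq2 or limma-voom. In the first 2 comparisons 1 gene (upwards) and 3 genes (downwards) had an unadjusted p under 0.05, DESeq2 called 1 and 2, and limma-voom 1 and 0. Pxdn, peroxidasin, which cross-links collagen IV, fell from ImC to Bone (log2 fold change −2.79 ± 0.66, adjusted p = 0.0112), and the value was −2.20 without ImC replicate 2. With scaling by library size alone the call was lost (−2.43, adjusted p = 0.12). Tgm2, transglutaminase 2, was at 1.29 to 14.5 CPM in ImC, 26.3 to 42.3 CPM in MatC and 5.22 to 12.1 CPM in Bone. By edgeR its adjusted p was 0.0804 from ImC to MatC (log2 fold change 2.20) and 0.0937 from MatC to Bone (−2.17), neither of which passed. DESeq2 called Tgm2 in both comparisons (2.20 and −2.16, adjusted p = 0.0154 and 0.0193). With limma-voom it passed from ImC to MatC (2.90, adjusted p = 0.0359) and not from MatC to Bone (−2.17, adjusted p = 0.0875). Whether edgeR called Tgm2 also changed with the low-count filter and with the libraries in the fit.

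All 12 genes of the hypoxia list were tested. From ImC to MatC 1 rose and 2 fell (median −0.19), from MatC to Bone 0 were called (0.02), and from ImC to Bone 3 rose and 3 fell (−0.43). In the comparison with 0 calls 1 gene had an unadjusted p under 0.05, and DESeq2 and limma-voom called 0. Car9 fell from ImC to MatC (log2 fold change −7.33 ± 1.28, adjusted p = 0.0114). The call was lost with limma-voom (−6.50, adjusted p = 0.0712) and kept in the other 17 settings. Leaving out ImC replicate 2 gave −5.75 and leaving out MatC replicate 2 gave −8.61. Egln3 fell too (−2.91 ± 0.63, adjusted p = 0.0247), and without ImC replicate 2 the value was −1.87 and not called. That call was also lost without MatC replicate 1 or 2. Car9 also fell from ImC to Bone (−8.09 ± 1.30, adjusted p = 0.00199), and was at −6.43 without ImC replicate 2. Without Bone replicate 1 or 2 it was at −7.42 and −9.48. Epas1, the hypoxia-inducible factor HIF-2α, rose from ImC to MatC by 3.91 ± 0.88 (adjusted p = 0.0279), in 9 of 18 settings, and by 4.60 without ImC replicate 1. That call was kept only without ImC replicate 3 or MatC replicate 3 among the fits that left out 1 library. Between ImC and Bone Epas1 rose by 3.67 ± 0.87 (adjusted p = 0.0113), and by 4.43 without ImC replicate 1. Ndrg1, Ankrd37, Vegfa and Egln3 were called from ImC to Bone with adjusted p of 0.0493, 0.0416, 0.0335 and 0.0435, and each call was lost in at least 6 of 18 settings. Without ImC replicate 2 the values were 3.89 for Ndrg1, 3.69 for Ankrd37 and −0.72 for Egln3. Of the Snail factors, whose proteins Loxl2 and Loxl3 are known to bind, 2 of 3 were tested and 0 were called in any comparison, nor at an unadjusted p under 0.05 or by DESeq2 or limma-voom. Snai2 was at 8.40 to 29.3 CPM in ImC, 14.1 to 30.2 CPM in MatC and 29.3 to 42.4 CPM in Bone.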

How the data were processed

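RNA-seq read counts of 9 libraries, 3 per tissue, were analysed. Reads were trimmed, aligned to mm10 and counted by the authors; the submitters' processing notes name Trimmomatic 0.30, TopHat2, Bowtie2, HTSeq and edgeR without their roles. The deposited raw table holds whole-number counts per gene. A second deposited table of 13302 genes holds rounded scores, each library's counts times 1 factor, and served only to read those factors from genes above 2000 counts. All per-sample columns were mapped to labels.

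Counts were fitted with edgeR 4.0.16 (R 4.3.3): filterByExpr with a minimum count of 10, TMM scaling, and the quasi-likelihood test in 1 model over all 9 libraries. Adjusted p-values are Benjamini-Hochberg over all 14257 tested genes, and a gene was called below 0.05. The SE was derived from the F statistic. Alternatives, 18 in all, changed the scaling, filter, tool (DESeq2 1.42.0, limma-voom 3.58.1), samples, replicate block or left out 1 library. CPM levels were TMM-scaled, and log2 CPM for r used a prior count of 2. No 2 libraries of a tissue agreed within sampling noise (chi-square per degree of freedom at least 14.1).

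Named genes were the 5 members, up to 3 called genes with the smallest p per list, comparison and direction, the 5 genes most like each member (predicted genes left out; 1 gene is not reported here), and the 2 most abundant of each marker list. Other named genes (list genes at 0 reads, Col10a1, Ihh, Bmp1, Eln, Tgm2, Atp7a, Snai2, Htra2, Col2a1, Col11a2, Plod1) were chosen after their values were seen. In the table, 4 list genes were found under older symbols. The members and lists were chosen with earlier results of these data known. Replicate numbers were not used as pairs in the main fit, and whether they pair the libraries is not known.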

Additional observations from a re-analysis of the deposited data

How the results depend on the processing

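The calls for Lox and Loxl4 between ImC and MatC, and for Lox, Loxl3 and Loxl4 between ImC and Bone, were kept under all 18 alternatives. The number of the 5 genes called from MatC to Bone was 0 with scaling by library size alone and 2 without a low-count filter. Against the midpoint it was 3 without the filter and 2 with DESeq2. Leaving out 1 library gave 2 to 3 calls (ImC to MatC), 1 (MatC to Bone), 3 to 4 (ImC to Bone) and 1 to 2 (midpoint). Without the filter, Lox passed from MatC to Bone (2.08, adjusted p = 0.0315). Values whose sign varied were not called with all libraries. They were Loxl1 from ImC to Bone (−0.85 to 0.44 with 1 library left out), and Loxl2 from ImC to MatC (0.058 with limma-voom, −1.03 to 0.92 with 1 library left out), from ImC to Bone (−0.38 to 1.58, below 0 without ImC replicate 1, ImC replicate 3 or Bone replicate 1) and against the midpoint (−0.85 to 0.13). Loxl4 from MatC to Bone changed sign too (0.79 by library size, −0.70 to 0.073 with 1 library left out). The causes were not tested. Scaling by library size alone moved the median of all genes by −0.53 (ImC to MatC), 1.01 (MatC to Bone), 0.48 (ImC to Bone) and −0.77 (midpoint) on the log2 scale, and the other scalings by at most 0.08. Library-size scaling ended the ImC to MatC calls of Adamts2, Col1a2, Col5a2, Egln3, Emilin1, Epas1, Leprel2 and Postn. From MatC to Bone it ended those of Fbln5, Fbn1, Leprel4, Plod2 and Thbs1. From ImC to Bone it ended those of Ankrd37, Col11a2, Egln3, Fbln5, Fbn2, Leprel2, Leprel4, Ndrg1 and Plod1. In that comparison it also ended those of Plod2, Plod3, Ppib, Pxdn, Serpinh1, Slc31a1, Thbs1 and Vegfa. The share of Loxl1 in ImC was 3.59% per kb against 2.44% of counts, and that of Loxl4 in Bone 4.31% against 3.79%. The number of all genes called was 1099 from ImC to MatC and 205 to 2229 under the alternatives. It was 863 from MatC to Bone (167 to 1964), 4432 from ImC to Bone (2073 to 5627) and 436 against the midpoint (75 to 1012). Counts for the pathway lists under the alternatives, a check chosen after seeing the data, ranged for the collagens from 0 to 3, 4 to 8 and 7 to 9 in the first 3 comparisons, and for the lysyl hydroxylases and their partners from 0 to 2, 1 to 4 and 2 to 9. Depth limited the low members most in MatC replicate 3, where Loxl1 had 5 reads and 3 reads correspond to 0.849 CPM.

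Same-numbered libraries of different tissues correlated between −0.131 and 0.24 in their deviations from the group means. For the other library pairs the values lay between −0.396 and 0.36. With 3 libraries per tissue these values cannot decide whether the numbers pair the libraries. A replicate block left the calls at 2 (ImC to MatC), 1 (MatC to Bone), 3 (ImC to Bone) and 1 (midpoint), and gave 0.10 for Loxl1 from ImC to Bone. Of all 53 calls of pathway list genes, the block ended 7. These were Adamts2, Col1a2 and Leprel2 from ImC to MatC, Fbln5 and Plod2 from MatC to Bone, and Egln3 and Serpinh1 from ImC to Bone.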
